A study of Mus musculus with 5 samples.

Results

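The claudin genes described are Cldn1, Cldn2, Cldn3, Cldn4, Cldn7, Cldn8, Cldn10, Cldn12 and Cldn23. They were taken by symbol and are 9 of the 24970 genes counted and 9 of 31 claudin genes in the tables. RNA was sequenced from dissected urothelium, the lining epithelium of bladder, in 5 libraries of 1 mouse each at age 10 weeks. The controls, WT 1 and WT 2 (n = 2), were wild-type C57Bl/6 mice. The Nicastrin knockouts, KO 1, KO 2 and KO 3 (n = 3), had the genotype Krt5CreERT2;Ncstnflox/flox, and their strain is given only as that genotype. In them an inducible Cre recombinase is driven by the promoter of Krt5, a keratin gene of basal epithelial cells, a design meant to delete Ncstn in these cells and their descendants. No library of mice with the Cre alone, or with the floxed alleles alone, was analysed here, and no source used here states the induction of the Cre. Loss of Ncstn, the Cre, its induction and strain background cannot be told apart. Values are given in the order WT 1, WT 2, then KO 1, KO 2, KO 3.

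Claudins span the membrane and bind claudins of the facing cell, and strands of them form the tight junction, the seal between neighbouring epithelial cells. Some members seal against ions and others line pores that let ions through, so the mix that a tissue makes is taken to set how leaky its junctions are. In bladder this seal, together with the uroplakin plaques of the superficial umbrella cells, keeps urine out of the tissue. Nicastrin is a subunit of gamma-secretase, the protease that releases the active part of Notch receptors, and the comparison asks what its loss does to urothelium.

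Library facts that bear on all values were these. Gene counts per library were 12608836 to 27188499. The targeted gene Ncstn measured 144 and 129.6 CPM (CPM is the gene's count scaled to the library's effective size) in controls against 114, 117 and 123 CPM in knockouts, and this 1.16-fold lower level was short of the threshold (edgeR adjusted p = 0.133). Counts over the whole gene do not isolate the deleted exons and come from all cells of the sample, so they do not check the knockout labels. The precursor ribosomal RNA Rn45s made up 7.84% and 3.23% of control counts and 0.608% to 1.53% of knockout counts. The nuclear RNA Malat1 made up 0.390% and 0.281% against 0.0658% to 0.0779%, and reads assigned to no gene were 50.7% and 45.1% in controls and 39.4% to 43.8% in knockouts. None of these 3 measures overlapped between genotypes, and their part in the results was not tested. Uroplakins and keratins were abundant, with Upk1a at 2510 ± 143 CPM (SD, n = 2) in the wild types. Connective tissue RNA was also present, with the collagen gene Col1a1 at 3399 ± 435 CPM in the wild types and 1908 ± 333 CPM (SD, n = 3) in the knockouts. In such bulk samples fewer cells of a type and less RNA per cell cannot be told apart.

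The regions just before the start sites of Cldn3, Cldn4 and Cldn1 are shown. Cldn3 and Cldn4 mark the extremes of level among the members, and Cldn1 had the smallest p among members with a matched window. Cldn3 and Cldn4 lie 39.3 kb apart on chromosome 5, and Cldn3 was nearly silent while Cldn4 was the most abundant claudin. Cldn1 had the second smallest p of the members, after Cldn23, for which no window was matched. The 250 bases before each RefSeq start site on GRCm38.p6 are given 5′ to 3′ on the gene's own strand, at chr5:134985964-134986213 (plus strand) for Cldn3, chr5:134946935-134947184 (minus strand) for Cldn4 and chr16:26371840-26372089 (minus strand) for Cldn1. Capitals mark matches, on either strand, to the motifs described after the sequences.
Cldn3: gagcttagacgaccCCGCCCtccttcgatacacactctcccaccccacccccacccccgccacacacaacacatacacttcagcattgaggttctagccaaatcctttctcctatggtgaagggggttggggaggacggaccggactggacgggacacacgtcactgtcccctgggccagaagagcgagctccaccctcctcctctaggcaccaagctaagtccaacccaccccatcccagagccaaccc
Cldn4: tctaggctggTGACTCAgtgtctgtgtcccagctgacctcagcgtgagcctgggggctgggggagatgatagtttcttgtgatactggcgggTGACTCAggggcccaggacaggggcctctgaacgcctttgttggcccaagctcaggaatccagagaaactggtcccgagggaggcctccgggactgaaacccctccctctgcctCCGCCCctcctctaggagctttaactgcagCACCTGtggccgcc
Cldn1: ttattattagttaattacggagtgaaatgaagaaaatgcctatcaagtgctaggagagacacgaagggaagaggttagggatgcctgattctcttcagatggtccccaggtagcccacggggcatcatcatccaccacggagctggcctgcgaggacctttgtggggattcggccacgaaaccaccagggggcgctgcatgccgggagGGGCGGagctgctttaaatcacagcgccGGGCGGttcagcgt
The motifs searched, on both strands, were the Grainyhead motif AACCNGTT, the AP-1 motif TGANTCA, the RBPJ core TGGGAA, the Snail E-box CACCTG and the Sp/Klf box GGGCGG. RBPJ is the DNA-binding partner of Notch. The window of Cldn4 held 2 AP-1 matches, at -240 and -158 from the start site, 1 Sp/Klf match and 1 Snail match. An AP-1 match was present in 6.75% of the 32817 windows of this length in the table, a Snail match in 17.2% and an Sp/Klf match in 32.7%. Cldn1 held 2 Sp/Klf matches and Cldn3 held 1. The Grainyhead motif, in 1.78% of windows, and the RBPJ core, in 21.6%, were not found in these 3 windows. Further windows of Cldn10 and Cldn7 each held 1 RBPJ match, at -243 and -164. RefSeq windows were matched for 7 of the 9 genes, and none was matched for Cldn8 or Cldn23. The matches describe letters and were not tested as binding sites.

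The claudin mix of this urothelium was dominated by Cldn4, followed by Cldn8 and Cldn7. To compare genes with each other, CPM was divided by the exonic length, which gives CPM per kb. Cldn4, which encodes a sealing claudin, measured 266 and 302 CPM per kb in controls against 341, 352 and 301 CPM per kb in knockouts. Cldn8, a claudin best known from the tight renal collecting duct, was at 71.3 ± 4.63 CPM per kb (SD, n = 2) in the wild types and 109 ± 11.2 CPM per kb (SD, n = 3) in the knockouts. Cldn7, a claudin that binds the adhesion protein EpCAM, was at 50.3 ± 5.73 and 65.8 ± 6.76 CPM per kb. Together these 3 genes made up 91.2% ± 0.578 (SD, n = 2) of the summed level of the 9 members in the wild types and 88.6% ± 0.689 (SD, n = 3) in the knockouts.

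Below them the order of levels per kb in the wild types was Cldn5, Cldn23, Cldn12, Cldn1 and Cldn10. Cldn5, the claudin of blood vessel endothelium and not among the 9 members, ranged from 22.4 to 26.3 CPM per kb and overlapped with Cldn23, at 22.6 and 23.6 CPM per kb. The other neighbours in this order did not overlap between their ranges. In the knockouts Cldn23 stood above Cldn5 and Cldn1 stood above Cldn12, per kb. The order of Cldn23 and Cldn5 depends on the length scaling. In plain CPM Cldn23, at 41.8 and 43.6, already stood above Cldn5, at 31.7 and 37.2, in the wild types. The ratio of Cldn1 to Cldn12, which does not depend on how libraries are scaled, was 0.666 and 0.651 in controls against 1.19, 1.42 and 1.17 in knockouts. That of Cldn23 to Cldn5 was 1.01 and 0.897 in controls against 2.93, 2.20 and 2.15 in the knockouts. Neither ratio overlapped between genotypes. An exact two-sided permutation test of 2 against 3 libraries cannot give a p below 0.1, so ratios and shares are given without a test.

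In the knockouts Cldn4 held a smaller share of the mix, and Cldn23 and Cldn1 held larger shares. The share of Cldn4 in the summed level per kb was 62.4% and 65.2% in controls against 56.7%, 60.5% and 56.7% in knockouts, lower in every knockout than in either wild type. Cldn23 held 5.31% and 5.09% in controls against 7.36%, 7.14% and 8.26% in knockouts. Cldn1 held 1.37% and 1.13% in controls against 1.79% to 1.88% in the knockouts. These latter shares did not overlap between genotypes, and neither did those of Cldn12, which went from 1.90% ± 0.224 to 1.47% ± 0.129. Cldn8 held 16.1% ± 1.99 and 19.1% ± 1.73, with KO 2 at 17.1% below WT 1 at 17.5%, and Cldn7 held 11.3% ± 0.625 and 11.5% ± 0.457. Shares are bound to each other, since a larger share of 1 gene lowers the rest.

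**Figure D1:**
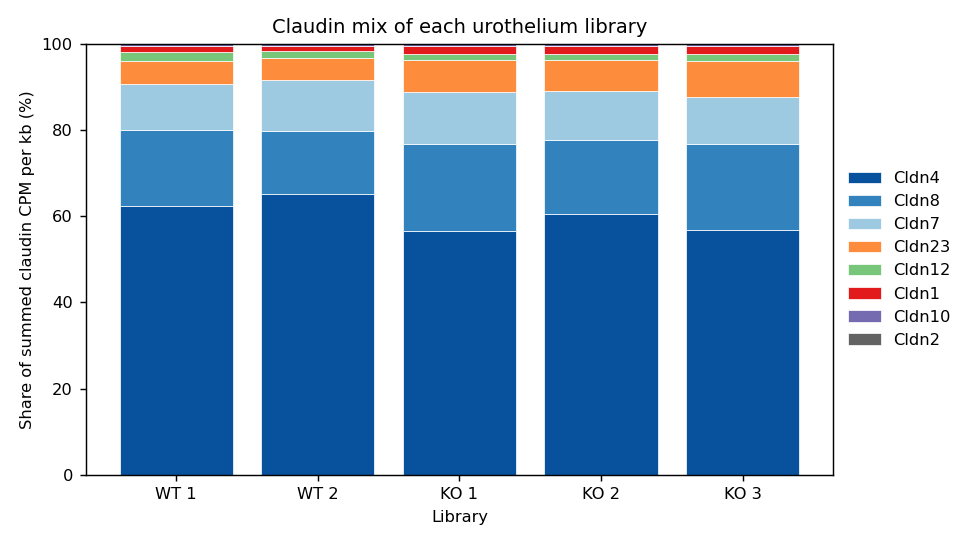
Share of each claudin gene in the summed claudin level per kb (percent, stacked bars) in the 5 libraries, without Cldn3, which was at or under 0.0117% in each. The Cldn4 segment spans 62.4% and 65.2% in the wild types and 56.7% to 60.5% in the knockouts, and the Cldn23 segment is wider in every knockout.

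Against wild type, 7 of the 9 members reached the test through both groups, and 4 of them, Cldn1, Cldn7, Cldn8 and Cldn23, rose in the knockouts. Cldn3 was too low to be tested, and Cldn2 reached the test only through the knockouts, where it is high, so its call is left out of these counts. The test was edgeR's quasi-likelihood test with Benjamini-Hochberg adjustment over 14779 genes and a threshold of 0.05, and 9.64% of all tested genes rose by it. None of the members fell (0 in edgeR, DESeq2 and limma-voom, and 0 at an unadjusted p under 0.05), where 10.0% of all tested genes did; every knockout lay below both wild types in 0 of them, against 25.1% of all genes. In 5 of these 7 members every knockout lay above both wild types, which held for 25.9% of all tested genes. The median log2 fold change of the 7 was 0.56, and that of all tested genes was 0.01. Leaving out WT 1 left 3 members that rose, and leaving out WT 2 left 2.

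**Figure D2:**
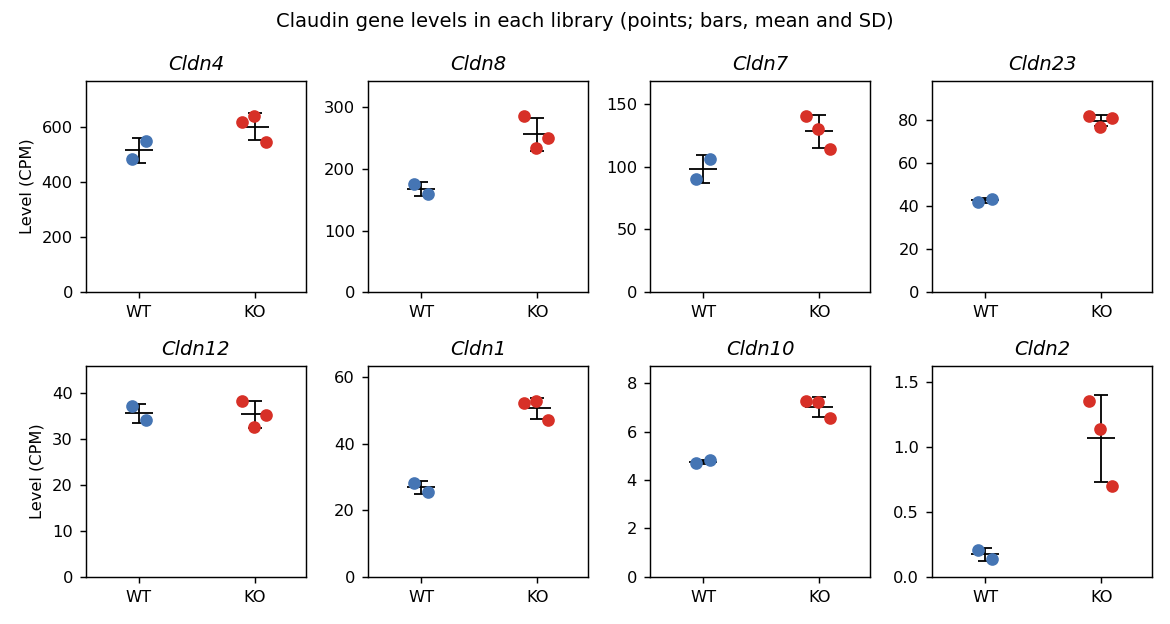
Level of 8 claudin genes (CPM, linear axes from 0) in each wild-type (blue) and knockout (red) library, with the mean and SD in black. Points of the genotypes do not overlap for Cldn8, Cldn7, Cldn23, Cldn1, Cldn10 and Cldn2, and they do for Cldn4 and Cldn12.

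Cldn23 had the smallest p of the members. It is a single-exon gene (ENSMUSG00000055976.6) on chromosome 8 from 35824712 to 35826559 (GRCm38, minus strand), and its product is 1 of the less studied claudins. It measured 41.8 and 43.6 CPM in controls against 81.8, 76.7 and 80.9 CPM in knockouts. All knockouts were close to each other and far above both wild types. The log2 fold change was 0.90 ± 0.09 (SE), a 1.87-fold rise (95% interval 1.62 to 2.16, edgeR adjusted p = 0.000289). The call held in every alternative tried, with log2 fold changes of 0.62 to 0.92.

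Cldn1, whose product is needed for the water barrier of the skin, lies on chromosome 16 from 26356642 to 26371841 (ENSMUSG00000022512.3, minus strand). It measured 28.3 and 25.4 CPM in controls against 52.1, 52.9 and 47.1 CPM in knockouts. The lowest knockout stood well above the higher wild type. Cldn1 rose 1.89-fold (95% interval 1.59 to 2.23, edgeR adjusted p = 0.000571), and this call too held in every alternative tried, with log2 fold changes of 0.63 to 0.99. Its neighbour Cldn16, 91.3 kb away, had 0 counts in all 5 libraries.

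Cldn8, a single-exon gene on chromosome 16 from 88560828 to 88563183 (ENSMUSG00000050520.4, minus strand), rose from a higher level. It measured 176 and 160.2 CPM in controls against 286, 234 and 249.9 CPM in knockouts, with no overlap. The rise was 1.53-fold (95% interval 1.29 to 1.82, edgeR adjusted p = 0.00509), and without WT 2 the call was lost (edgeR adjusted p = 0.0547). Cldn17, 53.8 kb away, had 0 to 4 counts per library.

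Cldn7, on chromosome 11 from 69964779 to 69967885 (ENSMUSG00000018569.12, plus strand), rose least among the members called. It measured 90.1 and 106 CPM in controls against 140.2, 130.2 and 114 CPM in knockouts, so that KO 3 was only slightly above WT 2. The rise was 1.31-fold (95% interval 1.09 to 1.57, edgeR adjusted p = 0.0414). The call was lost without WT 1 (edgeR adjusted p = 0.298), WT 2 (0.0612), KO 1 (0.133) or KO 2 (0.108), and with upper-quartile factors (0.0613) or a filter of 5 CPM (0.0589).

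Cldn2, which encodes a pore for cations and water found in leaky epithelia, was present at very low levels. It lies on chromosome X from 139800828 to 139811386 (ENSMUSG00000047230.6, plus strand). It had 4 and 2 counts in controls against 36, 19 and 9 in knockouts, which is 0.209 and 0.139 CPM against 1.36, 1.14 and 0.701 CPM. Every knockout was above both wild types. Summed over each group, 6 counts gave 0.180 CPM (95% exact Poisson interval 0.0661 to 0.392) and 64 counts gave 1.13 CPM (0.870 to 1.44), intervals that cover counting error only. Because no wild-type library and all 3 knockout libraries were above the low-count filter, a gene kept on these terms had to be higher in the knockouts, and no test is given for it. Even in the knockouts Cldn2 made up 0.0556% of the summed claudin level per kb.

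Cldn10, whose main isoforms form pores for cations or for anions, can be read here only as a gene, because the counts do not separate isoforms. It lies on chromosome 14 from 118787908 to 118875489 (ENSMUSG00000022132.15, plus strand). It measured 4.70 and 4.81 CPM in controls against 7.26, 7.22 and 6.54 CPM in knockouts, with no overlap. The log2 fold change of 0.56 ± 0.19 (SE) did not pass (edgeR adjusted p = 0.0588). It passed in 2 of 14 alternatives, without KO 3 (edgeR adjusted p = 0.0391) and with a replicate block (0.0259). In DESeq2 it did not (DESeq2 adjusted p = 0.127).

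Cldn4, a single-exon gene on chromosome 5 from 134945119 to 134946934 (ENSMUSG00000047501.3, minus strand), did not pass. It measured 483 and 548 CPM in controls against 619, 639 and 546 CPM in knockouts, and KO 3 lay below WT 2. The fold change was 1.17 with a 95% interval of 0.976 to 1.39 (edgeR adjusted p = 0.201), so a rise of the size seen in Cldn1 or Cldn23 is outside the interval. Cldn12, on chromosome 5 from 5489537 to 5514958 (ENSMUSG00000046798.14, minus strand), encodes a claudin that lacks the tail motif by which most claudins bind junction scaffolds. It was at 37.1 and 34.2 CPM in the wild types and at 38.3, 32.5 and 35.3 CPM in the knockouts, which overlapped throughout. Its fold change was 0.993 (95% interval 0.837 to 1.18, edgeR adjusted p = 0.962).

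Cldn3, which encodes a sealing claudin common in gut epithelium, was at the limit of detection. It had 1 count in WT 1, 1 count in KO 3 and 0 in the other libraries, beside 7012 to 16445 counts of Cldn4 per library. Summed over the group, 1 wild-type count gave 0.0300 CPM (95% exact Poisson interval 0.000760 to 0.167) and 1 knockout count gave 0.0176 CPM (0.000447 to 0.0983). Both are under the 3 counts that mark the detection floor, so no fold is given. The annotation places exons of Wbscr25 on the opposite strand over Cldn3, and no such overlap was found for the other 8 members.

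Several marker lists of the epithelium and of other cell types also differed between the genotypes, where 9.64% of all tested genes rose and 10.0% fell. The 10 pan-epithelial genes include the E-cadherin gene Cdh1 and the keratin genes Krt8 and Krt18. The geometric mean of the 10 was 444 and 485 CPM in controls against 574, 573 and 543 CPM in knockouts. Of the 10 genes 3 rose (Esrp1, Esrp2 and Ap1m2) and none fell. Cdh1, Krt8 and Krt18 did not pass (edgeR adjusted p = 0.399, 0.0584 and 0.0557). Of 9 fibroblast markers 8 fell, and their summed level went from 14456 to 16439 CPM in the wild types to 8463 to 10135 CPM in the knockouts. Of 8 endothelial markers 4 fell (483 and 486 CPM summed in the wild types, 332 to 372 CPM in the knockouts), and none of either list was at 0 in any library. The 7 umbrella cell markers went from 8274 and 9002 CPM summed to 12909 to 14184 CPM in the knockouts, and 6 of them rose. Of 7 tested basal cell markers 2 rose, 1 fell and 4 did not pass, with sums of 3729 and 4483 CPM in the wild types and 3620 to 6159 CPM in the knockouts. Krt14, a basal keratin, went from 1.78 and 3.14 CPM to 86.3, 117 and 31.2 CPM (32.9-fold, edgeR adjusted p = 0.000469), and the P-cadherin gene Cdh3 rose 2.32-fold (edgeR adjusted p = 0.00218). Itga6, the basal marker that fell, was 1.27-fold lower in the knockouts (edgeR adjusted p = 0.0300). Krt5 averaged 1491 ± 266 CPM in controls and 1861 ± 343 CPM in knockouts (edgeR adjusted p = 0.226). Of 7 smooth muscle markers 1 fell, a share near the background, and their sums overlapped (322 and 447 CPM in controls, 293 to 438 CPM in knockouts). Of 7 tested leukocyte markers 1 fell, also near the background, with summed levels of 254 and 266 CPM in the wild types and 80.5 to 259 CPM in the knockouts. The part of these shifts in the claudin results was not tested beyond the scaling given next. Of 4 mesothelial markers, Msln, Wt1 and Lrrn4 were at or below 0.467 CPM in every library. The remaining one, Upk3b, is also in the umbrella cell list. It was at 344 to 514 CPM and rose (edgeR adjusted p = 0.0156).

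The 9 claudins summed to 861 and 922 CPM in controls against 1226, 1174 and 1080 CPM in knockouts, a ratio of group means of 1.30. The ratio for the pan-epithelial genes was 1.21. When libraries were instead scaled to the geometric mean of the pan-epithelial genes, Cldn1 and Cldn23 still rose, with log2 fold changes of 0.63 and 0.62 (edgeR adjusted p = 0.00554 and 0.00335). Cldn8 and Cldn7 no longer passed (log2 fold changes 0.33 and 0.11, edgeR adjusted p = 0.0714 and 0.445), and Cldn4 changed sign to -0.06 (edgeR adjusted p = 0.687). Cldn10 was at 0.28 (edgeR adjusted p = 0.262). This scaling lowers the median log2 fold change of all tested genes from 0.01 to -0.28, and 3.21% of genes then rose and 29.0% fell. Relative to that median the members tested through both groups were higher except Cldn12, and Cldn12 was at -0.30 (edgeR adjusted p = 0.0927).

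**Figure D3:**
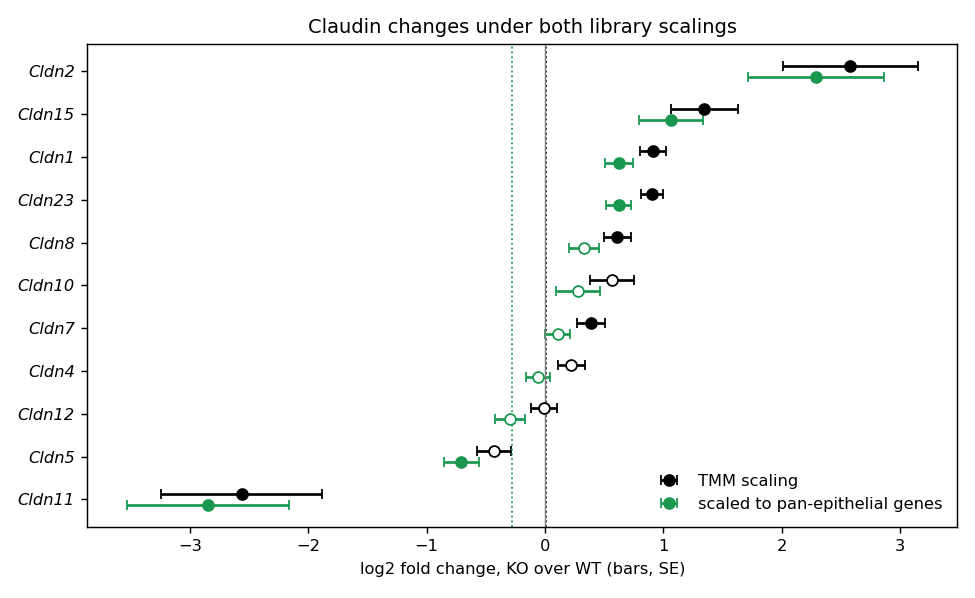
Log2 fold change, knockout over wild type, with SE bars, for the 11 tested claudin genes under TMM scaling (black) and scaling to pan-epithelial genes (green). Filled points passed the test, dotted lines give the median of all tested genes under each scaling (0.01 and -0.28), and Cldn1, Cldn23 and Cldn15 stay right of 0 and filled under both. Cldn2 and Cldn11 were tested through 1 group only, so their filled points are no support.

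Of the other 22 claudin genes 3 could be tested. Cldn5, of endothelium, measured 31.7 and 37.2 CPM in controls against 21.4, 26.8 and 28.9 CPM in knockouts, below both wild types in each knockout. Its log2 fold change of -0.43 ± 0.14 (SE) did not pass (edgeR adjusted p = 0.0594), but did in 7 of 14 alternatives (range 0.000986 to 0.264). Of the 8 endothelial markers, Kdr, Cdh5, Flt1 and Egfl7 fell in the same libraries, by 1.26, 0.64, 0.69 and 0.55 on the log2 scale. Pecam1, Tek, Tie1 and Emcn did not pass (edgeR adjusted p = 0.447, 0.0958, 0.0839 and 0.132), and Pecam1 overlapped between genotypes. Cldn15, a cation pore of the gut, rose from 1.57 and 2.65 CPM in the wild types to 5.04, 6.01 and 4.75 CPM (2.54-fold, edgeR adjusted p = 0.00979), a call lost without WT 1 (edgeR adjusted p = 0.132). Cldn11, known from myelin and testis, had 17 and 18 counts in the wild types and 8, 0 and 2 counts in the knockouts. It reached the test through the wild types alone, where it is high, and no test is given for it. Of 5 Schwann cell markers 0 passed the test, where 19.7% of all tested genes passed in either direction. They summed to 17.9 to 19.3 CPM in the wild types and 13.4 to 17.6 CPM in the knockouts. Of the 31 claudin genes 10 had no count in any library and 8 had 1 to 10 counts over the 5 libraries.

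The proteins that sit beside claudins in the membrane split by gene. Of 13 tested membrane partners 5 rose and 3 fell, where 19.7% of all tested genes passed in either direction. Ildr1, which encodes an angulin of junctions where 3 cells meet, measured 137 and 132 CPM in controls against 218, 214 and 195 CPM in knockouts, without overlap (1.56-fold, edgeR adjusted p = 0.00183). The junctional adhesion molecule genes Jam2 and Jam3, both also expressed by vessel endothelium, were lower by 1.84-fold (edgeR adjusted p = 0.000512) and by 1.67-fold (0.00308). Epcam itself averaged 145 ± 8.43 CPM in controls and 167 ± 15.5 CPM in knockouts, short of the threshold (edgeR adjusted p = 0.195). Under pan-epithelial scaling 5 of these partners passed, where 3.21% of all tested genes rose and 29.0% fell. Without KO 1 there were also 5, when 1747 genes passed in all, against 2907 with every library. Fits without WT 1 or WT 2 leave 1 wild type and are not counted here.

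Scaffolds tie the claudin tail to actin, and polarity proteins place the junction near the apical side. Of 21 such genes tested 8 rose and 1 fell, against the same 19.7%. Amotl2, which encodes a junctional angiomotin protein, measured 24.3 and 30.7 CPM in controls against 64.0, 66.2 and 54.0 CPM in knockouts (2.24-fold, edgeR adjusted p = 0.000519). The polarity gene Pard6b rose 2.05-fold (edgeR adjusted p = 0.00115) and Tjp3, which encodes the scaffold ZO-3, rose 1.52-fold (edgeR adjusted p = 0.00308, and 0.0520 without WT 1). Mpdz, which encodes a large scaffold that binds claudin tails, fell 1.80-fold (edgeR adjusted p = 0.00140). Tjp1, which encodes ZO-1, was at 297 ± 38.6 and 288 ± 13.3 CPM (edgeR adjusted p = 0.808). Without KO 2 there were 5 calls in this list, when 1901 genes passed in all, against 2907 with every library.

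Of 9 enzymes and regulators that act on claudins 2 rose and none fell, a share near the 19.7% of all tested genes that passed in either direction. They were St14, which encodes the membrane protease matriptase, and Spint2, which encodes an inhibitor of it, at 1.29-fold and 1.33-fold (edgeR adjusted p = 0.0202 and 0.0333). Both calls were lost without WT 1, WT 2, KO 1 or KO 2 and with pan-epithelial scaling (edgeR adjusted p up to 0.527 and 0.342). Among 16 epithelial transcription factors 5 rose and 1 fell, where 9.64% of all tested genes rose and 10.0% fell. Grhl3, a Grainyhead factor of barrier epithelia, measured 171 and 168 CPM in controls against 372, 376 and 336 CPM in knockouts (2.13-fold, edgeR adjusted p = 0.000125). Klf4 rose 1.88-fold and Elf3 rose 1.47-fold (edgeR adjusted p = 0.00158 and 0.00530), the latter not without WT 1 (edgeR adjusted p = 0.0681) or under pan-epithelial scaling. Zeb2, a repressor of epithelial genes made mainly by mesenchymal cells, fell 1.67-fold (edgeR adjusted p = 0.00130).

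**Figure D4:**
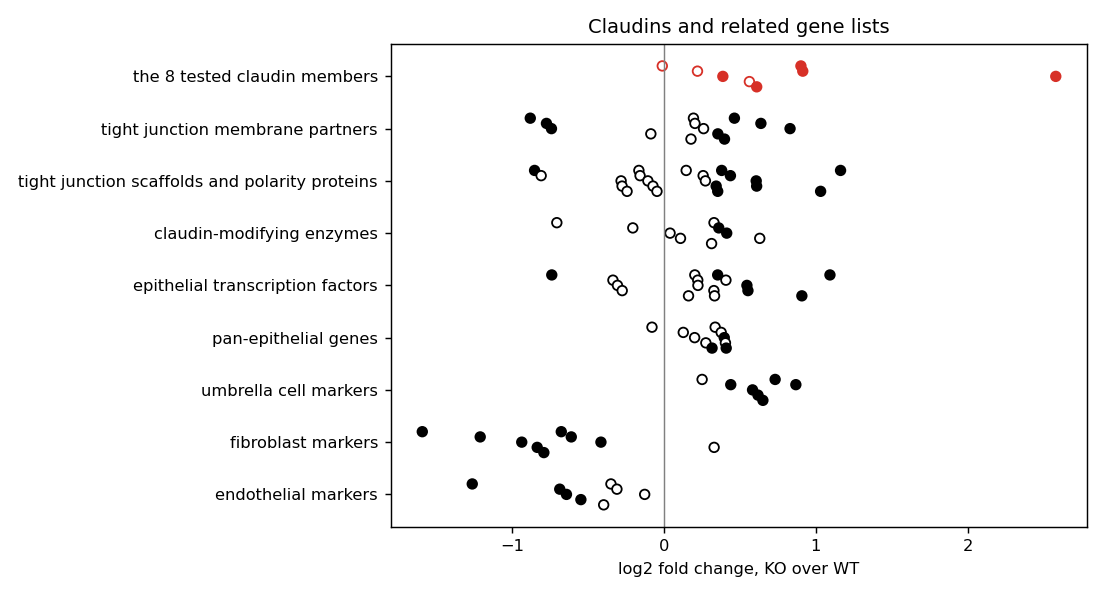
Log2 fold change, knockout over wild type, of each tested claudin member (red) and of the tested genes of 8 further lists (black), 1 point per gene; filled points passed the test and vertical offsets only separate points. Filled claudin points lie to the right of 0, Cldn2 among them although it was tested through the knockouts only, while fibroblast and endothelial points that are filled lie to the left.

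For the 2 members with the smallest p, the genes with the most similar pattern were looked up among 10249 genes with a mean of at least 10 CPM. The measure was the root mean square difference of log2 CPM, centred on each gene's mean, over the 5 libraries. For Cldn23 the nearest were Upk2 (0.05), a uroplakin gene, Rab11fip5 (0.06) and Spag1 (0.07). For Cldn1 they were Prkcq (0.02), Ccdc86 (0.04) and Sprr1a (0.04), a cornified envelope gene. Cldn1 and Cldn23 differed from each other by 0.10, and Cldn4 from Cldn23 by 0.35. The measure includes the difference between genotypes, and with 5 libraries it is a description only.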

How the data were processed

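Per the labels' protocols, urothelium stripped of muscle was ground frozen, extracted with TRI-Reagent and prepared with a TruSeq RNA kit. The submitters' processing notes name HTSeq 0.11.1, HISAT2 2.1.0, build mm10 and DESeq2. No source used here states the annotation or the strand setting. The authors deposited raw counts per gene symbol, 1 file per library. Summary entries that name no gene, 50.7% and 45.1% of tallied reads in controls and 39.4% to 43.8% in knockouts, were left out.

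Low genes were dropped by filterByExpr (count of 10, total of 15) and libraries scaled by TMM. The edgeR quasi-likelihood test had genotype as its only term, with 2 against 3 mice. SE was the log2 fold change divided by the root of F. CPM per kb and shares used GENCODE vM21 exonic lengths (GRCm38), and positions come from there. Versions were edgeR 4.0.16, DESeq2 1.42.0, limma 3.58.1 and R 4.3.3. Between libraries of a genotype, the chi-square per degree of freedom over genes was 38.4 for the wild types and 9.70 to 20.5 for the knockouts. These values are above counting error, so all libraries were kept as separate replicates. Between genotypes it was 42.9 to 55.4 for WT 2 against the knockouts and 101 to 159 for WT 1.

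The members, lists and motifs were chosen with earlier results of these data known. Named were all members, the other claudins tested, up to 4 called genes of smallest p per related list, abundant markers and the 3 genes of nearest pattern for 2 members. The result of 1 gene that this rule names is not reported here. Epcam, Tjp1, Kdr, Cdh5, Krt14, Cdh3 and Itga6 were named after their values were seen. So were the other endothelial markers, and Esrp1, Esrp2 and Ap1m2. Alternatives were other scalings, filters, fits and tools, a replicate block, each library left out, and other lengths or denominators for shares.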

Additional observations from a re-analysis of the deposited data

How the results depend on the processing

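Cldn2, tested through the knockouts only, is left out here. Of the members tested through both groups, 4 rose. Under pan-epithelial scaling Cldn1 and Cldn23 rose, and with a filter of 5 CPM Cldn1, Cldn8 and Cldn23 did. Without KO 1 or KO 2 Cldn1, Cldn8 and Cldn23 rose, and without KO 3 Cldn7 and Cldn10 did as well. The number of genes called overall was 2907, with 4765 under pan-epithelial scaling, and 715 to 3989 when each library was left out. Membrane partners called numbered 5 under pan-epithelial scaling and 4 to 9 when a library was left out, and scaffolds and polarity genes 3 to 12. Claudin-modifying enzymes called numbered 1 under pan-epithelial scaling, 4 with no low-count filter and 0 to 5 when a library was left out. Cldn4 changed sign under pan-epithelial scaling (log2 fold change -0.0574), and Cldn12, near 0, ranged from -0.0845 to 0.0468 when a library was left out, and was 0.0468 without WT 1 and 0.0350 without KO 2.

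Share differences, knockout minus wild type in percentage points, kept their sign with every length, except as given for Cldn7 and Cldn3 when a library was left out. With no length scaling they were 1.35 for Cldn1, 0.0712 for Cldn2 and -0.953 for Cldn12, against 0.582, 0.0437 and -0.435 as reported. With coding length they were 1.43 for Cldn1, 0.0680 for Cldn2, -0.829 for Cldn12 and 1.58 for Cldn23, against 2.39. Leaving out a library gave 0.463 to 0.700 for Cldn1 and 0.0481 to 0.0731 for Cldn10. The share difference of Cldn7, 0.200 as reported, took either sign when a library was left out (-0.242 to 0.642), as did that of Cldn3.

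Replicate numbers carry no stated pairing. Correlations of deviations across genes were -0.08 for WT 1 with KO 1 and 0.07 for WT 2 with KO 2. The differently numbered WT 1 with KO 3 gave 0.12. With 2 wild types the deviations of WT 1 and WT 2 mirror each other, so these values are bound together and cannot decide on pairing. With a replicate block 6 members rose, again counting Cldn2, and the member added was Cldn10. Under this block 4637 genes were called, and 5 enzymes and 10 transcription factors were. Depth limits the values of Cldn2, Cldn3 and Cldn11, which had few counts per library.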
